A study of Mus musculus with 8 samples.

Results

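The genes described here were higher in mouse embryonic fibroblasts (MEFs) expressing *EZHIP* than in the parental cells. In the other lines with a block of the same enzyme they stayed within about 2-fold of the parental level. They were selected on their measured values. On the log2(mean value + 1) scale a gene had to be at least 1 above control in EZHIP cells, which is about 2-fold, and less than 1 away from control in both EED-null and K27M cells. The deposited table has 875 genes, and 79 of them met these limits. Of these, 7 (*Atp8b1*, *Cacna2d1*, *Chrnd*, *Igf2*, *Mmp19*, *Slc30a4* and *Slc48a1*) were set aside by symbol, and 72 genes remained.

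The study asked whether EZHIP, a protein found in a childhood brain tumour, changes gene expression as the H3 K27M histone mutant does. RNA depleted of ribosomal RNA was sequenced from 4 groups of MEFs with 2 libraries each. Control cells were the parental line, which carries a floxed *EED* gene. EZHIP cells and K27M cells had received lentivirus that stably expresses human *EZHIP* or H3.3 K27M. EED-null cells came from floxed cells treated with a transient Cre lentivirus, and are 1 selected clone. Each group is therefore 1 cell line, and nothing in the labels says that its 2 libraries came from separate cultures, so the spread between them may be technical.

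Polycomb repressive complex 2 (PRC2) places methyl groups on lysine 27 of histone H3, and its trimethyl mark H3K27me3 keeps developmental genes silent in cells that should not use them. H3 K27M and EZHIP both bind the complex and inhibit its catalytic subunit, and EED is a core subunit without which the complex fails. In fibroblasts the classical targets are silent genes for transcription factors and signals of other lineages. Genes that respond in 1 of these lines and not in the others are read here as a pattern of RNA levels, since the histone mark was not analysed here.

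The 72 genes were a modestly raised and largely already active group. Their fold between EZHIP and control cells had a median of 2.58 and quartiles of 2.20 and 2.99. The smallest fold was 2.005 in *Rasa3*. The median log2 difference from control was 1.36 in EZHIP cells, against 1.16 over all listed genes and 2.08 over the 494 raised there. It was 0.27 in the K27M line (0.59 over all listed genes, 1.61 over the 494). It was 0.37 in the EED-null line (0.40 and 1.94). All listed genes also take in genes that were lower in EZHIP cells than in control. In each line the median of the 72 genes was below that of the 494, which include them. The medians of the 72 genes follow from the limits and are given without a test. Against the control mean, the first and second EZHIP libraries had medians of 1.35 and 1.36. In K27M cells 49 of the genes lay above control and 23 below, and in EED-null cells 55 lay above and 17 below. In each of the 2 lines 50 of the 72 were within 1.5-fold of control. The sign in these lines depended on scaling. When the libraries were rescaled to the listed genes the median became -0.010 in EED-null and -0.19 in K27M cells, while that in EZHIP cells was 1.04.

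Single libraries kept the pattern of the means. In 70 of the 72 genes both EZHIP libraries were above all 6 other libraries, against 20.6% of the listed genes, a difference that the selection brings with it. The exceptions were *Bola2*, with 104 and 129 in EZHIP and 67.9 and 123 in EED-null libraries, and *Sh2b2*, with 136 and 86.6 in EZHIP and 92.9 and 81.4 in EED-null libraries. On the log2(value + 1) scale the lower EZHIP library stood a median of 0.78 above the highest other library, with quartiles of 0.51 and 1.11. Both K27M libraries were above both control libraries for 38 genes (52.8%, with 57.4% of all listed genes) and below both for 16 (22.2%, with 33.7%). Both EED-null libraries were above the control libraries for 49 genes (68.1%, with 53.7%) and below them for 9 (12.5%, with 38.6%). The listed genes include those lowered in EZHIP cells. Among the 494 genes raised there, both EED-null libraries were above control for 87.4% and below for 5.87%. For K27M libraries these shares were 77.9% and 11.7%.

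**Figure D1:**
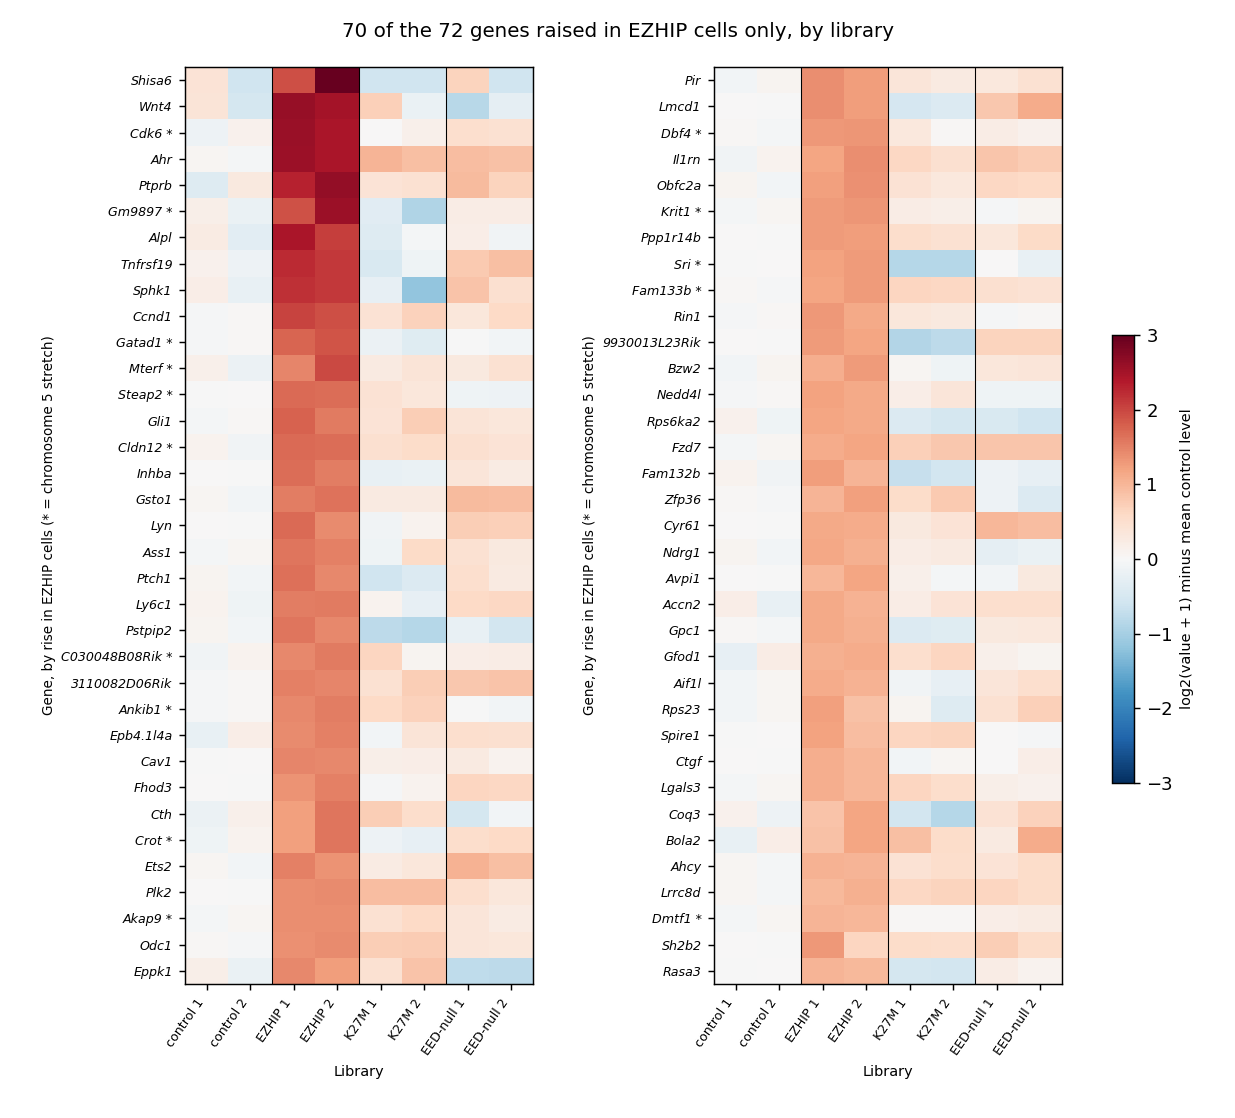
Each row is 1 of 70 of the 72 genes and each column 1 library, coloured by log2(value + 1) minus the mean control level of that gene, with red above and blue below control. The EZHIP columns are red throughout, while the K27M and EED-null columns are pale (medians over all 72 genes of 1.36, 0.27 and 0.37), and asterisks mark genes of a stretch of chromosome 5.

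Genes near the limits show how sharp the choice was. The member with the smallest rise in EZHIP cells was *Rasa3* at 1.002, and 15 members lay within 0.1 of that limit, with no listed gene just under it because the table itself holds genes past 2-fold. *Ahr* was the closest member to the upper limit in K27M cells at 0.97, and *Acot2* was just outside at 1.06. In EED-null cells *Lmcd1* was just inside at 0.97 and *Zeb1* just outside at 1.005. The lower limits were not crowded. *Sri* at -0.86 was the lowest member in K27M cells and *Eppk1* at -0.77 the lowest in EED-null cells, whereas the nearest genes outside were *Cyp51* at -1.54 and *Pde8b* at -1.34.

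Most of the 72 genes were already expressed in control cells. Per kilobase of transcript, the median control value was 55.7 for the 71 members with a known length. It was 7.58 for genes raised in EZHIP and EED-null cells (68 genes), 23.9 for genes raised in EZHIP and K27M cells (55 genes) and 2.48 for genes raised in all 3 lines (253 genes). At least 10 per kilobase was reached by 90.1% of the 71 members, compared with 66.4% of the 850 listed genes with a length, 46.4% of the genes raised in EZHIP cells and 26.5% of the genes raised in all 3 lines. The median over the listed genes was 27.8. Genes were set aside by symbol only for the members, and the other sets keep all symbols, so the sets are not fully alike. The difference between the sets is a description, since the control level enters the limits that define each of them.

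**Figure D2:**
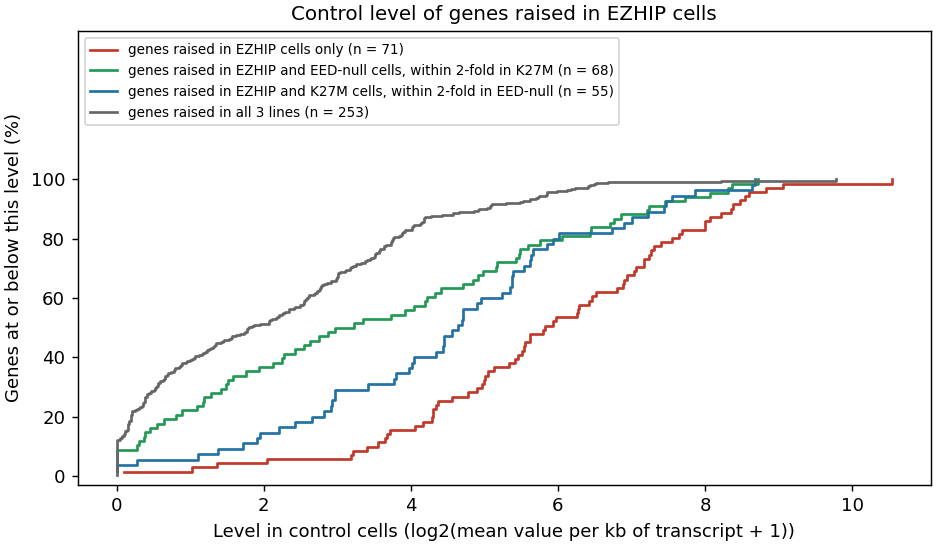
The curves give the share of genes (%) at or below each control level, as log2(mean control value per kilobase of transcript + 1), for 4 sets of genes raised in EZHIP cells. The curve of the genes raised in EZHIP cells only lies to the right of the others, with a median of 55.7 per kilobase against 2.48 for genes raised in all 3 lines. Genes were set aside by symbol in the EZHIP-only set and not in the others.

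The members were not spread evenly over the genome. A stretch at the centromeric end of chromosome 5, from the start of *Cdk6* to the end of *Dmtf1* (chr5:3343893-9161776 in mm9, 5.82 Mb), held 16 of the 72 genes, or 22.2%, and 2.35% of the listed genes with a position. No other stretch of that length held more than 2 members. The stretch was noticed after the values were seen and its ends are members, so no test was made. It has 38 annotated protein-coding genes, and 20 genes in it were listed. Of its protein-coding genes 18 were not listed and were not analysed here. The table was restricted to genes at least 2-fold apart in EZHIP and control cells, so all 20 were listed for such a change. Whether the other 18 were unchanged or not detected is not known, so the stretch as a whole cannot be called raised. All 20 listed genes were higher in EZHIP cells, and in all 20 both EZHIP libraries were above the 6 others. That pattern held for 20.6% of all listed genes and 36.4% of the genes raised in EZHIP cells. For the 16 members among the 20, the selection brings it with it. Over the table, 494 of the 875 genes were raised in EZHIP cells.

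In order along the chromosome, 15 of the 16 members were *Cdk6*, *Fam133b*, *C030048B08Rik*, *Gatad1*, *Ankib1*, *Krit1*, *Mterf*, *Akap9*, *Gm9897*, *Cldn12*, *Steap2*, *Sri*, *Dbf4*, *Crot* and *Dmtf1*. Their known functions differ. The group takes in a cell cycle kinase, a protein mutated in malformations of brain vessels, a tight junction protein and a calcium-binding protein. The EZHIP to control fold had a median of 2.76 and a range from 2.02 to 5.77, and 10 of the 16 lay between 2 and 3, as did 45 of the 56 other members. *Mterf* and *Gm9897* are paralogues (*Mterf1a* and *Mterf1b* in RefSeq), and in all 8 libraries their estimated reads added up to a whole number (within 0.01 of a read), so the share of each gene is uncertain. Counted once, on summed values of 131 and 196 in EZHIP against 46.2 and 36.2 in control libraries, they made up 1 of 15 members of the stretch at 3.98-fold. The 16 genes had median folds of 1.16 in EED-null and 1.14 in K27M cells. When the libraries were rescaled to the listed genes, which was chosen after seeing the data, both EZHIP libraries of the 20 listed genes still exceeded the other 6 for 20 genes. The median fold was then 2.22, with 0.88 in EED-null and 0.83 in K27M cells.

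*Cdk6*, at chr5:3343893-3523218 on the plus strand, encodes the kinase that partners D-type cyclins to move cells out of the first gap phase. Its values were 1034 and 942 in the EZHIP libraries, 154 and 188 in the control libraries, 244 and 236 in the EED-null and 172 and 189.7 in the K27M libraries. The EZHIP libraries were far above the rest and the EED-null libraries slightly above control. The mean was 988 ± 65.6 (SD, n = 2) in EZHIP cells, 5.77-fold the control mean of 171 ± 24.2 (SD, n = 2). *Gatad1*, at chr5:3632932-3647934 on the minus strand, encodes a zinc finger protein that associates with histone H3. It held 2158 and 2378 in EZHIP, 629 and 664 in control, 643 and 610.5 in EED-null and 570.4 and 500.0 in K27M libraries, so only the EZHIP libraries left the control range upwards. *Dbf4* encodes the regulatory partner of the Cdc7 kinase that starts DNA replication, and its libraries read 2022 and 2053 in EZHIP, 847 and 795 in control, 952 and 903 in EED-null and 1025 and 847 in K27M cells.

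*Krit1*, mutated in familial cavernous malformations of brain vessels, had 354 and 383 in control and 893 and 919.9 in EZHIP libraries, with 358 and 393 in EED-null and 429 and 413 in K27M libraries. *Sri* encodes sorcin, a calcium-binding protein, and was the member lowest in K27M cells. Its values were 1154 and 1217 in EZHIP, 491 and 506 in control, 505 and 425 in EED-null and 274 and 275 in K27M libraries. *Akap9*, a scaffold of the Golgi and centrosome, and *Ankib1*, a ubiquitin ligase, had the highest EZHIP means of the stretch members. *Akap9* went from 1048 and 1134 in control to 2881 and 2889 in EZHIP libraries. *Ankib1* went from 923 and 976 to 2598 and 2742. The libraries of a pair lay close together for both genes. *Steap2*, a metal reductase, went from 749 and 769.9 to 2468 and 2420.1, and *Cldn12*, a claudin of tight junctions, from 324 and 283 to 980.0 and 964. In K27M libraries *Steap2* read 1032 and 968 and *Cldn12* 422 and 448, between the control and EZHIP values. *Dmtf1*, at the far end, had the smallest fold of the stretch at 2.02.

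The 4 listed genes of the stretch that are not members failed a limit in another line and not in EZHIP cells. *Cyp51*, an enzyme of cholesterol synthesis, held 13141 and 13707 in EZHIP libraries, 5397 and 5532 in control and 1839 and 1912 in K27M libraries, where it was low. *Fzd1*, a Wnt receptor, was also raised in EED-null cells, with 776 and 749.9 in control, 6694 and 6685 in EZHIP and 2678 and 2818 in EED-null libraries. *Steap1* was also raised in K27M cells, with a log2 difference of 1.72 against 3.07 in EZHIP cells. *Abcb1b*, a drug efflux pump, was low in EED-null cells at -1.60, and its symbol would have been set aside in any case. The next listed gene, *Sema3e*, lies 4.86 Mb beyond *Dmtf1*, and had its largest difference in K27M cells, at 4.22, with 2.44 in EED-null and 1.73 in EZHIP cells. With RNA from 1 line per group, the number of gene copies and the transcription of each copy cannot be told apart.

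**Figure D3:**
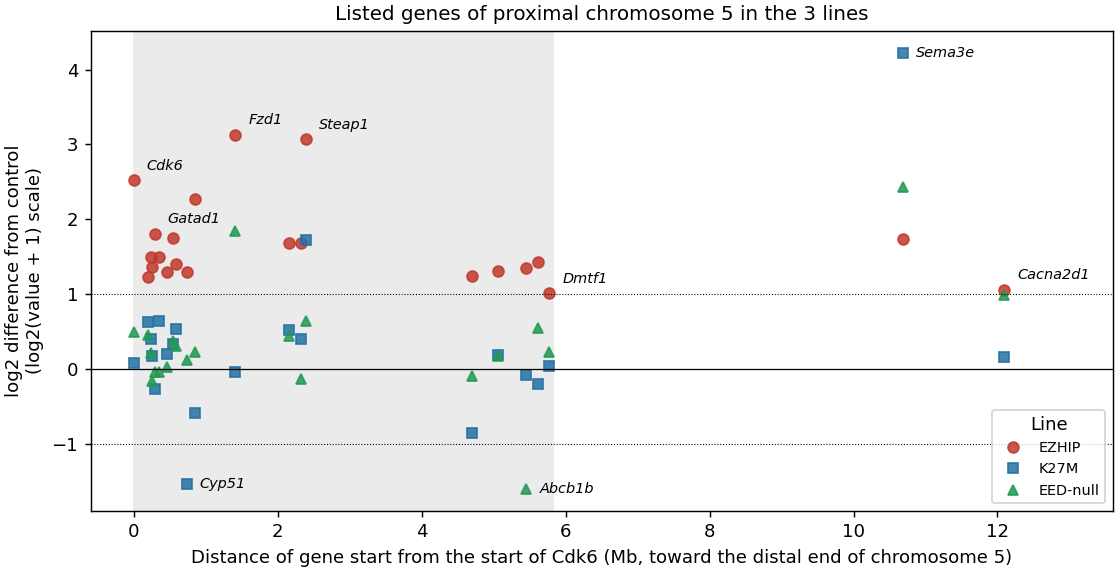
Each listed gene near the centromeric end of chromosome 5 is placed by the distance of its start from the start of *Cdk6* (Mb), with its log2(value + 1) difference from control in EZHIP (circles), K27M (squares) and EED-null cells (triangles); dotted lines are the limits at 1 and -1 and grey is the 5.82 Mb stretch. The EZHIP points of the 20 listed genes in grey lie between 1.01 and 3.13, while those of K27M have a median of 0.18 and those of EED-null 0.21.

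Promoter sequences of 3 stretch members show how different the starts in the stretch are: its first gene, the start shared by a pair of neighbours, and the window with the fewest CG. The RefSeq promoter table (GRCm38.p6) gave 250 bases before and 50 after the start, and each window was found by exact match at 1 place in mm9. Capitals mark CG dinucleotides, the sites of DNA methylation that PRC2-bound promoters are usually rich in. The windows are *Cdk6* at chr5:3343643-3343942, *Krit1* at chr5:3802931-3803230 and *Sri* at chr5:8045828-8046127, all on the plus strand:
Cdk6: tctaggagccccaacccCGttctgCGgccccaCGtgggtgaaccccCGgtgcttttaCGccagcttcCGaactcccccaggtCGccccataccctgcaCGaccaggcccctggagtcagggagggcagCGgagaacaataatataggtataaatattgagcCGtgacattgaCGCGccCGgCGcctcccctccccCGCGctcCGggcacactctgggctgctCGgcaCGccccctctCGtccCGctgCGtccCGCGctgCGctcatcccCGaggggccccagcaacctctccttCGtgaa
Krit1: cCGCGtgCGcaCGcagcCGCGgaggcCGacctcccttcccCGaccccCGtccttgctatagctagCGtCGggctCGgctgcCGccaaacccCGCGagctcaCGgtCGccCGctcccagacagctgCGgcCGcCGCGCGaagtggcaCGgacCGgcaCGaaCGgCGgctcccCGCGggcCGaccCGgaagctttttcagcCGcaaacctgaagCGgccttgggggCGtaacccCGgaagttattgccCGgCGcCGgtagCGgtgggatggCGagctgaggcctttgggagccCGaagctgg
Sri: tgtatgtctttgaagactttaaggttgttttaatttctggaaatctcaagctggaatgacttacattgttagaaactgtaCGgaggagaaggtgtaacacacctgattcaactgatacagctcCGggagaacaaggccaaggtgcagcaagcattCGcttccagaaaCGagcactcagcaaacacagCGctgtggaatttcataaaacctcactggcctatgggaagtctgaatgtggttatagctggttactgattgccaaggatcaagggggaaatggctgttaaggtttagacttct
The *Cdk6* window holds 27 CG, the *Krit1* window 42 and the *Sri* window 5. The *Krit1* window also covers the start of *Ankib1*, which runs the other way, so these neighbours share it. The fold was 5.77 for *Cdk6*, 2.46 for *Krit1*, 2.81 for *Ankib1* and 2.38 for *Sri*. Among the 14 stretch members in the promoter table the number of CG ran from 5 to 42, with a median of 25. The table covered 52 of the 72 members (72.2%), too few to compare their promoters with those of other genes.

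Outside the stretch the members lay mostly alone. Of the 56 other members, 3 pairs were within 1 Mb of each other. *Ahr* and *Bzw2* are 599 kb apart on chromosome 12, *Ass1* and *Aif1l* are 430 kb apart on chromosome 2, and *Wnt4* and *Alpl* are 442 kb apart on chromosome 4. Chromosome 9 had 58 listed genes, of which 16 were raised in EZHIP cells, and 0 members.

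Secreted signals and receptors made up 8 of the 72 genes. By symbol, 6 of 49 listed secreted signals were members (8.33% of the members, with 5.6% of the listed genes). For receptors it was 2 of 34 (2.78%, with 3.89%). Only genes raised in EZHIP cells could be members, and these were 35 of the 49 secreted signals and 14 of the 34 receptors. *Wnt4* (chr4:136833404-136855641, plus strand) encodes a Wnt ligand that acts in kidney and reproductive tract formation. It held 85.2 and 78.7 in EZHIP, 17.5 and 8.86 in control, 6.93 and 10.7 in EED-null and 22.3 and 11.4 in K27M libraries, and the EZHIP values were well clear of the other 6. *Fzd7*, a Wnt receptor of the frizzled family, read 1159 and 1213 in EZHIP, 509 and 557 in control, 952 and 947 in EED-null and 876 and 938 in K27M libraries, so here the K27M and EED-null values were also above control and under the limit.

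*Inhba* encodes the subunit of activin A, a signal of the transforming growth factor beta family. Its libraries held 301 and 276 in EZHIP, 94.4 and 93.7 in control, 121 and 111 in EED-null and 80.7 and 82.2 in K27M cells, with both K27M libraries under control. *Ctgf* and *Cyr61* encode matrix-bound signals that are well-known targets of the YAP and TAZ coactivators. *Ctgf* held 956 and 897 in EZHIP, 453 and 443 in control, 452 and 512 in EED-null and 426 and 468 in K27M libraries, with the other lines near control. *Cyr61* held 3031 and 2998 in control and 6665 and 6475 in EZHIP libraries, but its EED-null libraries, at 6022 and 5685, came close to EZHIP. The lower EZHIP library of *Cyr61* stood only 0.10 on the log2(value + 1) scale above the highest other. *Il1rn*, the natural antagonist of the interleukin-1 receptor, read 175 and 202 in control and 432 and 498 in EZHIP libraries, with 334 and 319.7 in EED-null and 289 and 265 in K27M libraries.

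*Tnfrsf19*, a receptor of the tumour necrosis factor family expressed in development, had 185 and 169.9 in EZHIP, 42.1 and 34.7 in control, 66.5 and 72.7 in EED-null and 27.8 and 34.97 in K27M libraries. The EED-null libraries were thus above both control libraries without reaching the limit. *Gpc1*, a cell surface heparan sulfate proteoglycan, was the reverse in K27M cells, with 2794 and 2649 in EZHIP, 1312 and 1229 in control, 1564 and 1574 in EED-null and 952 and 983 in K27M libraries.

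The set held 2 genes that Hedgehog signalling is known to switch on. *Gli1* is the pathway's transcriptional activator and *Ptch1* its receptor and feedback inhibitor. *Gli1* read 137 and 119 in EZHIP, 37.98 and 40.6 in control, 51.3 and 50.4 in EED-null and 52.9 and 66.4 in K27M libraries. *Ptch1*, named for its role after its values were seen, read 840.3 and 722 in EZHIP, 279 and 251 in control, 378 and 318 in EED-null and 176 and 199 in K27M libraries. In EZHIP cells they were at 3.26-fold and 2.95-fold of control. They parted in K27M cells, where the difference from control was 0.59 for *Gli1* and -0.50 for *Ptch1*. *Hhip*, also known as a Hedgehog target, is listed but is not a member. For *Hhip*, K27M minus EED-null was -2.61, and its direction in EZHIP cells is not given here. Whether the pathway changed was not tested.

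Regulators inside the cell were represented by 7 of 51 listed genes (9.72% of the members, with 5.83% of the listed genes), *Cdk6* and *Akap9* among them. Of the 51, 36 were raised in EZHIP cells. *Ccnd1* (chr7:152115836-152125774, minus strand) encodes cyclin D1, the partner that activates Cdk6. It held 1797 and 1661 in EZHIP, 426 and 447 in control, 557 and 657 in EED-null and 594 and 703 in K27M libraries, so every library of the other lines lay between control and EZHIP. *Cdk6*, which lies in the chromosome 5 stretch, and *Ccnd1* were members at 5.77-fold and 3.96-fold. *Ccnd2*, another D-type cyclin gene, is listed but is not a member, and its direction in EZHIP cells is not given here. *Ptprb*, a receptor phosphatase best known from endothelium, rested on low values, with 65.1 and 82.1 in EZHIP, 9.24 and 15.5 in control, 24.95 and 20.3 in EED-null and 16.7 and 17.5 in K27M libraries. *Rasa3*, which switches off small GTPases, held 689 and 691 in control and 1408 and 1358 in EZHIP libraries, and its K27M libraries were under control at 481 and 468. *Sphk1*, the kinase that makes sphingosine 1-phosphate, read 155 and 147 in EZHIP, 37.98 and 28.05 in control, 61.00 and 46.5 in EED-null and 27.8 and 13.99 in K27M libraries.

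Transcription and chromatin genes supplied 4 of 75 listed genes by symbol (5.56% of the members, with 8.57% of the listed genes). Of the 75, 53 were raised in EZHIP cells. Among the 4 members, *Zfp36* is there by prefix and binds RNA. *Ets2*, an ETS transcription factor downstream of growth factor signalling, read 1684 and 1512 in EZHIP, 623 and 564 in control, 1221 and 1102 in EED-null and 701 and 752 in K27M libraries. It was thus just short of the limit in EED-null cells. *Zfp36*, which binds and destabilises inflammatory messenger RNAs, read 318 and 370.5 in EZHIP, 159 and 154 in control, 141 and 117 in EED-null and 228 and 272 in K27M libraries, and lay on opposite sides of control in the other lines. *Ahr* (chr12:36182646-36219710, minus strand) encodes the ligand-activated aryl hydrocarbon receptor. Its values were 1421 and 1308 in EZHIP, 250.5 and 228 in control, 453 and 441 in EED-null and 486 and 451 in K27M libraries. All 4 libraries of the other lines were above control, and the EZHIP mean of 1364 ± 80.2 (SD, n = 2) was 5.70-fold the control mean of 239 ± 15.8 (SD, n = 2).

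**Figure D4:**
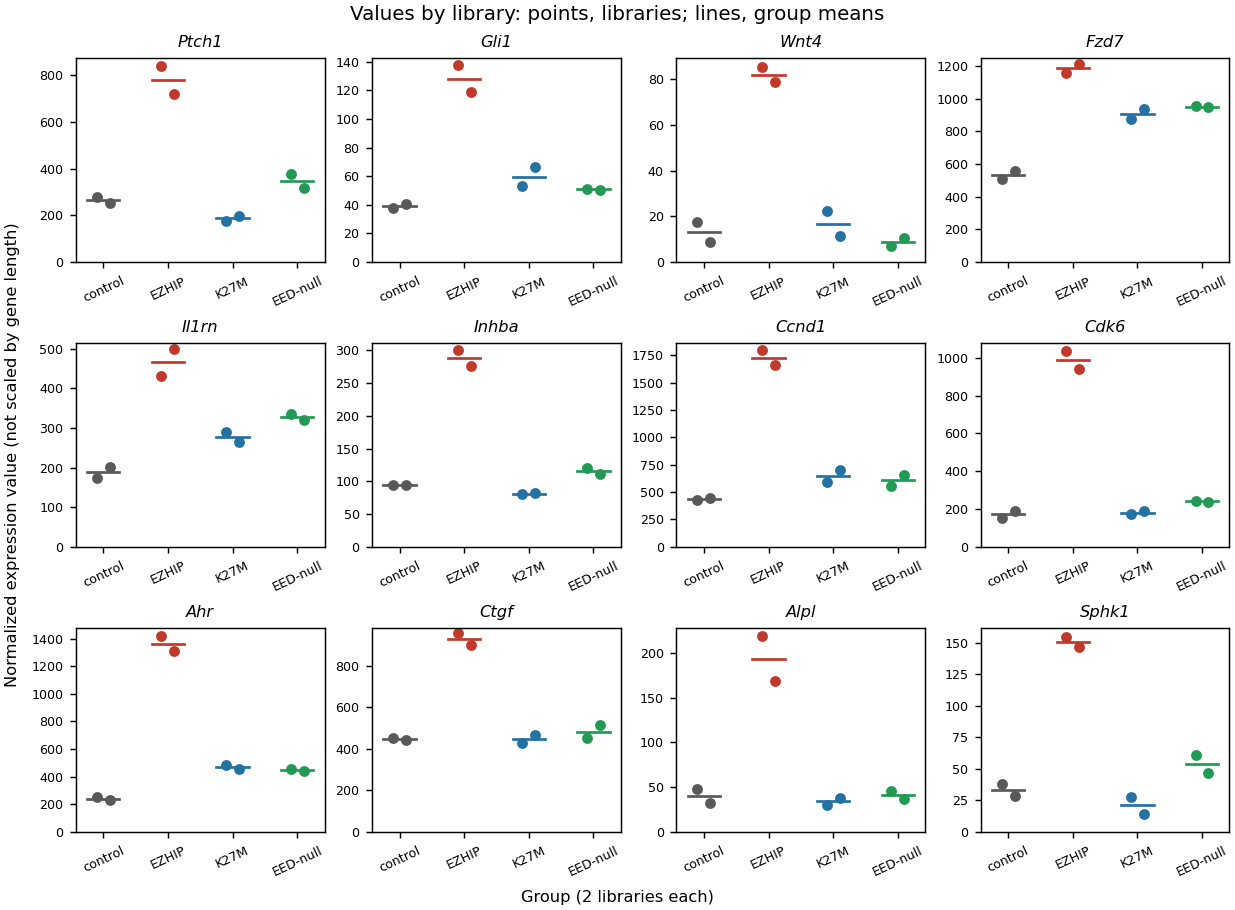
Points are the normalized expression values of single libraries (not scaled by gene length, each panel with its own axis from 0) and lines the group means, for 12 of the 72 genes in control, EZHIP, K27M and EED-null cells. In each panel both EZHIP points lie above the other 6, for example 1034 and 942 for *Cdk6* against at most 244 elsewhere.

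Several members are enzymes, although by symbol the metabolic class gave 2 of 25 listed genes (2.78% of the members, with 2.86% of the listed genes). Of the 25, 16 were raised in EZHIP cells. *Alpl*, tissue-nonspecific alkaline phosphatase of bone and stem cells, held 219 and 169 in EZHIP, 47.2 and 31.7 in control, 45.7 and 36.8 in EED-null and 30.1 and 37.6 in K27M libraries. The values outside EZHIP cells overlapped with control throughout. *Gsto1*, a glutathione transferase, read 368 and 333 in control and 1014 and 1083 in EZHIP libraries, and was also above control at 677 and 662 in EED-null libraries. *Ass1*, the argininosuccinate synthase of arginine synthesis, read 55.4 and 60.5 in control and 179.9 and 166 in EZHIP libraries. *Ahcy*, which clears the by-product that inhibits methyl transfer reactions, read 2373 and 2346 in EZHIP, 1207 and 1107 in control, 1548 and 1689 in EED-null and 1555 and 1674 in K27M libraries. Its fold of 2.04 was near the limit, with the other lines in between.

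Membrane and adhesion genes included *Cav1*, the coat protein of caveolae, with 2535 and 2474 in EZHIP, 911 and 912 in control, 1091 and 975 in EED-null and 1022 and 1039 in K27M libraries. The libraries of each group lay close together, and the other lines were a little above control. *Lrrc8d*, a subunit of volume-regulated anion channels that the symbol put among adhesion genes, had 184 and 171 in control and 347 and 375 in EZHIP libraries. *Ndrg1*, a gene raised by low oxygen and by differentiation, had 2426 and 2274 in EZHIP, 1136 and 1021 in control, 889 and 939 in EED-null and 1263 and 1291 in K27M libraries.

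Immune genes were 3 of 47 listed (4.17% of the members, with 5.37% of the listed genes). Most of the 47 could not be members, since only 8 were raised in EZHIP cells. The cytoskeleton class gave 0 of 15 (0%, with 1.71%), and 9 of the 15 were raised in EZHIP cells. *Lgals3* encodes galectin-3, a sugar-binding protein. It read 724 and 787 in control and 1600.2 and 1515 in EZHIP libraries, with 1178 and 1082 in K27M libraries. *Lyn*, a Src family kinase, read 64.7 and 64.2 in control and 211 and 174 in EZHIP libraries, with 108 and 106 in EED-null libraries. *Ly6c1* read 130.4 and 110.0 in control and 348 and 353 in EZHIP libraries, but has a near-identical neighbour, so its reads may be shared. *Pstpip2*, an actin-associated adaptor of myeloid cells, was lower in K27M than in control libraries, at 38.95 and 36.7 against 71.9 and 63.5, and read 209 and 186 in EZHIP libraries. The genes without a descriptive symbol were 4 of 38 listed (5.56% of the members, with 4.34% of the listed genes). Of the 38, 15 were raised in EZHIP cells. Among the 4 members, *9930013L23Rik* is *Cemip*, a hyaluronan-degrading protein, and *3110082D06Rik* is *Ptchd4* in the RefSeq table. *3110082D06Rik* read 79.04 and 82.7 in control and 233 and 226 in EZHIP libraries.

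The largest difference on the log2(value + 1) scale, 2.75, belonged to the weakest gene. *Shisa6*, a modulator of glutamate receptors in neurons, was at 4.73 and 13.7 in EZHIP, 1.03 and 0 in control, 1.39 and 0 in EED-null and 0 and 0 in K27M libraries. The EZHIP libraries differed widely from each other, and the gene was the only member with a mean under 5.

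K27M and EED-null cells were compared with each other because the limits do not fix which of the 2 is higher. The limma test on log2(value + 1), adjusted by Benjamini-Hochberg over the 875 genes, called a gene at an adjusted p under 0.05 and at least 2-fold. Of the 72 genes 1 was called higher in K27M cells, where 27.8% of all listed genes were, and 5 were called higher in EED-null cells, where 26.6% were. The first count was 3 without the first EED-null library or without the second K27M library, and 2 without the other library of either line. Both lines had to stay within 2-fold of control, which caps this difference. The remaining 66 were not called, among them all 16 of the chromosome 5 stretch. The median of K27M minus EED-null was -0.11 over the 72 genes and 0.0066 over all listed genes.

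The gene higher in K27M cells was *Eppk1*, which encodes epiplakin, a keratin-binding protein. It had 69.3 and 68.8 in EED-null and 162 and 217 in K27M libraries, with 134 and 103 in control and 323 and 286 in EZHIP libraries. The EED-null libraries were the lowest. The difference was 1.43 (SE 0.19, limma adjusted p = 0.000766). *9930013L23Rik* went the other way, with 117 and 124 in K27M, 345 and 344 in EED-null, 217 and 215 in control and 522 and 489 in EZHIP libraries. K27M cells were thus under control and EED-null cells above it, and the difference was -1.51 (SE 0.10, limma adjusted p = 2.71e-05).

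*Lmcd1*, a LIM domain protein, held 58.4 and 62.1 in K27M, 147 and 182 in EED-null, 83.8 and 82.7 in control and 220.1 and 199 in EZHIP libraries, and its difference was -1.43 (SE 0.13, limma adjusted p = 0.000155). Its EED-null libraries came near the EZHIP level. *Sphk1* differed by -1.38 (SE 0.33, limma adjusted p = 0.00927) and *Coq3*, an enzyme of ubiquinone synthesis, by -1.27 (SE 0.19, limma adjusted p = 0.00121). The call for *Sphk1* was lost without the first EED-null library (adjusted p = 0.0535) or without the second K27M library, when the difference was -0.91 (adjusted p = 0.0267) and no longer 2-fold; over all alternatives its adjusted p ran from 0.00251 to 0.0535. *Coq3* read 95.7 and 114 in EED-null and 47.3 and 38.5 in K27M libraries, on either side of 76.99 and 63.5 in control. The fifth call was *Tnfrsf19* at -1.13 (SE 0.16, limma adjusted p = 0.000892), which at -0.97 was under 2-fold without the first K27M library. Of the genes not called, *Ptch1* had -0.88 (95% interval -1.25 to -0.52), which passed the adjusted p but not 2-fold.

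**Figure D5:**
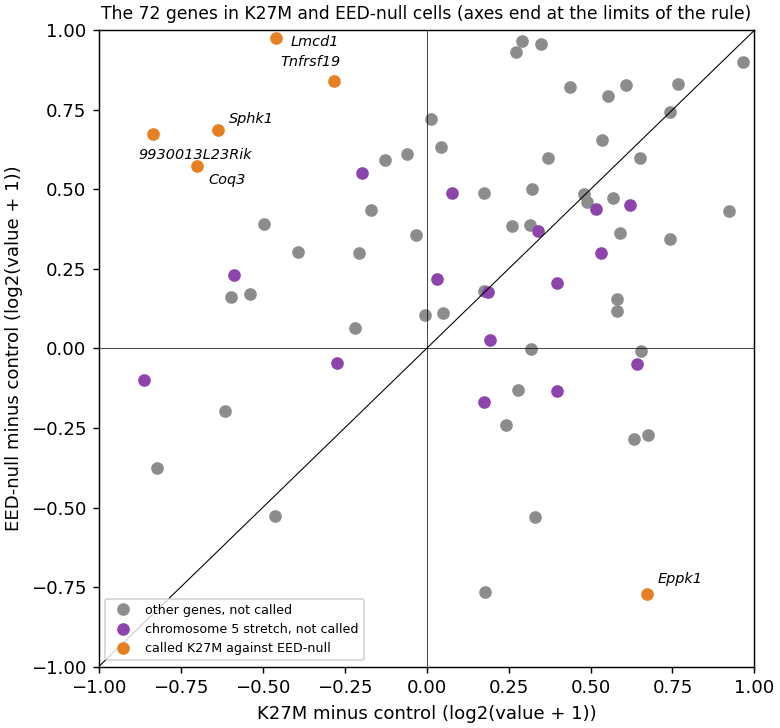
Each point is 1 of the 72 genes, placed by its log2(value + 1) difference from control in K27M and in EED-null cells, and the axes end at the limits of the selection. Genes called between these lines are orange, with *Eppk1* alone below the diagonal and 5 genes above it, and none of the 16 purple genes of the chromosome 5 stretch was called.

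The members shared little else that the selection did not use. Their median transcript length was 3431 bases, against 3720.5 over the listed genes. The GC content of the transcript had a median of 50.1% over 71 members and 50.6% over 848 listed genes, and was 44.2% in the 16 genes of the chromosome 5 stretch. Some neighbours overlap on opposite strands. *Gsto1* shares 9821 bases with *Wdr96*, and *Gatad1* also has an overlapping neighbour. Whether reads were counted by strand is not given in the sources used here. *Rps23*, a ribosomal protein gene, has many processed copies, so its values are uncertain.

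Depth differed between libraries. Between 23679 and 54692 estimated reads per library fell on the 72 genes, of 209390 to 424561 on all listed genes, and the median member had between 189.5 and 433 reads. In each EZHIP library 0 members were at or under 3 reads, and in the other libraries 1 to 2 were. These totals cover selected genes, so full library depth is not known from them. Neither *Eed* nor the human *EZHIP* transgene is listed, so the targeted genes were not checked.

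Cell type markers could be checked only in part, because the table holds few of them and none is a member. Of 14 fibroblast markers *Dcn*, *Fap* and *Col3a1* were listed, and the 2 control libraries had summed values of 18112 and 17719. The sums were 6934 and 6460 in EZHIP, 5805 and 5723 in EED-null and 5560 and 5876 in K27M libraries. The sum was lower than control in all 3 lines, but its genes did not move alike. *Col3a1* made up most of it in control libraries, at 17665 and 17245, and less of it than *Dcn* in K27M libraries, at 2206 and 2517. *Dcn* was higher in K27M libraries, at 3192 and 3255 against 364 and 380.1 in control, and lower in EZHIP libraries, at 129 and 179, and in EED-null libraries, at 69.3 and 73.6. *Fap* differed from control by -2.90 in EZHIP, -3.73 in EED-null and 0.59 in K27M cells on the log2(value + 1) scale. The epithelial markers *Epcam* and *Krt14* summed to 59.2 and 36.5 in EZHIP, 6.16 and 3.69 in control, 43.0 and 24.4 in EED-null and 109 and 141 in K27M libraries, so they were highest in K27M cells. The endothelial marker *Kdr* was also highest there, at 157 and 222, with 52.1 and 51.3 in EZHIP, 9.24 and 9.60 in control and 11.1 and 10.7 in EED-null libraries. Of the neural markers only *Sox2* was listed, at 0 in control and K27M libraries, 166 and 137 in EZHIP and 245 and 270.2 in EED-null libraries. No skeletal muscle, smooth muscle or macrophage marker was listed. The part of these markers in the result was not tested, and in bulk RNA fewer cells of a type and less RNA per cell cannot be told apart.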

How the data were processed

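The authors deposited 1 table of normalized signal, with an expression value for each of 875 genes in each of 8 libraries. The authors estimated reads per gene with RSEM (version 1.2.4 per the labels' processing notes) on the mm9 build and called differential expression with EBSeq. Values are estimated reads divided by 1 size factor per library and are not scaled by length. The table was restricted to genes at least 2-fold apart in EZHIP and control cells. Each sample also received spike-in RNA of other cells, whose use in scaling is not given in the sources used here. Recovered from the steps between values, 1 read was worth one fixed amount per library, and 73.9% to 83.8% of values were whole reads within 0.01, so no count model was fitted.

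Groups came from the sample labels. Members and lists were chosen with earlier results of these data known, and comparisons with control are given without tests, because they chose the members. K27M and EED-null cells were compared with limma 3.58.1 (R 4.3.3), a mean per group, a spread over all 8 libraries and Benjamini-Hochberg adjustment over 875 genes, after a check on simulated data. Python 3.11.15, numpy 2.4.6 and pandas 2.3.3 gave the other values, and matplotlib 3.10.9 the plots. The pseudocount was 1. Positions came from an annotation of mm9, with 850 listed genes and 71 members at a single locus (not *Eppk1*). With a minimum mean of 5 as a filter, 71 members passed.

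Genes named are the 10 with the largest rise, the 8 highest in EZHIP cells, the 8 with the widest gap to the other libraries, those called between K27M and EED-null cells, those nearest each limit, and examples of each class of symbols. Further genes were named for their position or known role after their values were seen. Alternatives were pseudocounts of 0.1 and 5, the filter, mean logs, rescaling on the listed genes, a limit of 1.5-fold, a replicate block, 4 libraries only, a trend in limma, and each library left out. Single values of 2 members are not reported here.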

Additional observations from a re-analysis of the deposited data

Results flagged for a closer look

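Differences between K27M and EED-null cells drew attention because the test compares the response of these 2 lines directly. By limma over all listed genes, 1 of the 72 genes was higher in K27M cells, against 27.8% of all listed genes, and 5 were higher in EED-null cells, against 26.6%. The selection keeps both lines within 2-fold of control, which caps the difference, so low counts come with it. The differences on the log2(value + 1) scale, K27M minus EED-null, were 1.43 for *Eppk1*, -1.51 for *9930013L23Rik*, -1.43 for *Lmcd1*, -1.38 for *Sphk1*, -1.27 for *Coq3* and -1.13 for *Tnfrsf19*. Groups of 2 libraries are too small to ask whether a single library stands apart.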

How the results depend on the processing

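The number of genes was between 67 and 76 under both other pseudocounts, the filter, mean logs and each library left out, where it ran from 67 to 73, and 52 genes, 15 of them in the chromosome 5 stretch, were members whichever single library was left out. It was 47 after rescaling on the listed genes, with 34 genes shared and 13 new, and 36 with a limit of 1.5-fold. The chromosome 5 stretch held 10 of the 47 and 12 of the 36, and 15 genes in place of 16 when the paralogues *Mterf* and *Gm9897* were counted once, an alternative chosen after seeing the data. Rescaling lowered the median over all listed genes by 0.31 in EZHIP, 0.39 in EED-null and 0.45 in K27M cells, so changes are relative to that shift. The median of the 72 genes became 1.04 in EZHIP cells, and turned to -0.010 in EED-null and -0.19 in K27M cells. A pseudocount of 5 gave 1.34 in EZHIP and 0.35 in EED-null cells. With 1 library left out the medians ran from 1.34 to 1.36 in EZHIP, 0.34 to 0.37 in EED-null and 0.23 to 0.27 in K27M cells. The count higher in K27M cells was 2 with a pseudocount of 0.1 and 1 to 3 with a library left out, the most without the first EED-null or the second K27M library, and the count higher in EED-null cells stayed between 4 and 6. Of the 6 genes called, *Sphk1* lost its call at -1.19 without the first EED-null library and at -0.91 without the second K27M library, and *Tnfrsf19* lost it at -0.97 without the first K27M library. Beyond that the cause of these changes was not tested. With the replicate block the counts were 1 and 5, the same as without it. Deviations of same-numbered K27M and EED-null libraries correlated at 0.046 over 875 genes, and the libraries were not treated as pairs. That value covers only these lines, so whether same-numbered libraries shared a batch was not tested. Genes under about 3 reads in a library are not resolved at this depth.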
